A study of Mus musculus with 12 samples.

Results

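The 37 p53 pathway genes described here were followed through RNA-seq of Myc-CaP cells and Myc-CaP tumors exposed to YJ1206. The members are Trp53, which encodes p53, its regulators and its known direct targets, with the targets of the BCL2 family left out. They were taken by gene name, and all 37 were found among the 40077 genes listed for the cells and the 34508 listed for the tumors. After the filter on low counts, 30 of the 37 members could be tested in cells and 36 in tumors. Myc-CaP is a mouse prostate cancer line derived from a tumor driven by a Myc transgene, and YJ1206 is an orally available PROTAC that degrades the kinases CDK12 and CDK13, which act on RNA polymerase II. The cell experiment compared 3 DMSO libraries with 3 libraries of cells given 1 μM YJ1206 for 24 hours. The tumor experiment compared subcutaneous Myc-CaP tumors of male FVB mice, 3 libraries from vehicle-treated animals and 3 from animals dosed orally with 100 mg/kg of YJ1206, 3 times a week. All 12 libraries came from 1 cell line, and the labels do not say whether the 3 libraries of a group were separate cultures or animals, so p-values measure only the spread between these libraries.

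p53 is a transcription factor that is kept scarce by MDM2, a ubiquitin ligase, and held inactive by its relative MDM4. When DNA damage or another stress releases it, p53 binds a pair of short repeats near its targets and raises genes for cell cycle arrest, cell death, DNA repair and metabolic control, together with Mdm2 and Ppm1d, whose products switch the response off again. Much of the control of p53 acts on the protein, which was not measured here.

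Total estimated counts were 18198086 to 18519926 in the DMSO libraries, 13936902 to 14869592 in the YJ1206-treated cells, 15391544 to 26928365 in vehicle tumors and 18307820 to 22418665 in YJ1206-treated tumors. The labels number the DMSO and YJ1206 cell libraries in separate series, so in the cells the treatment cannot be told apart from the series a library belonged to. Among the markers of epithelial and prostate tumor cells, Epcam and Cldn7 had 0 counts in all 6 cell libraries, and the summed level of the list was 426 to 441 TPM in DMSO and 323 to 351 TPM in YJ1206-treated cells. Library 3 of each tumor group lay between libraries 1 and 2 for most genes: among genes with a mean of at least 100 counts that differed by over 0.5 on the log2 scale between libraries 1 and 2, it did so for 96.3% in vehicle and 95% in YJ1206-treated tumors, against 62.5% to 80.9% for any library of the cells. For the 37 members the counts were 28 in vehicle and 22 in YJ1206-treated tumors, against 9 to 14 of 33 in the cells. The labels do not say whether library 3 was independent of libraries 1 and 2. If it was not, SE and adjusted p in tests that use the tumors are too small. Tumor results are therefore also given from libraries 1 and 2 alone.

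The promoters of the members differ in whether they hold the letters of a p53 site close to the start of the gene. RefSeq windows of GRCm38.p6, running from 250 bases before to 50 bases after a start, were found for 31 of the 37 members, in 41 windows. Tnfrsf10b, Perp, Trp53inp1, Zmat3, Ddb2 and Rrm2b had no window. An exact match to the p53 consensus decamer of 10 bases, which reads alike on both strands, stood in 11 of the 41 windows (26.8%) and in 8.36% of all 32851 windows. The 2 windows of Aen overlap and hold the same decamer, so by gene 10 of the 31 members had one. A pair of decamers, at most 13 bases apart, with at most 2 of the 20 positions off the consensus and the central C and G of each kept, stood in 5 member windows (12.2%) and in 4.09% of all windows. A match is a description of the letters and was not tested for binding. The members were chosen to include known direct targets of p53, so nothing is read from their higher shares.

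The 4 such pairs in members that passed the test in cells or tumors are printed because they belong to genes that moved in different directions. Each line holds the 250 bases before the start, 5′ to 3′ on the strand of the gene, with the decamers in capitals. The Cdkn1a stretch is chr17:29090729-29090978 on the plus strand, with 19 of 20 positions matching and no spacer. The Ccng1 stretch is chr11:40755287-40755536 on the minus strand, also with 19 of 20 matching and no spacer. The Gadd45a stretch is chr6:67037408-67037657 on the minus strand, with 18 matching and a spacer of 6 bases. The Sesn1 stretch is chr10:41887189-41887438 on the plus strand, before an internal start of that gene, with 18 matching and a spacer of 3 bases. Cdkn1a and Sesn1 each had another window, chr17:29093519-29093818 and chr10:41810324-41810623, with no exact decamer and no pair.
Cdkn1a: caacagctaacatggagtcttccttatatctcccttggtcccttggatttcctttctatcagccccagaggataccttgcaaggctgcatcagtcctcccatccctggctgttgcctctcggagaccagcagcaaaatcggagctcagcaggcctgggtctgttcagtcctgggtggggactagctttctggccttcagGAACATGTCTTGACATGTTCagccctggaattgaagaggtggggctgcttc
Ccng1: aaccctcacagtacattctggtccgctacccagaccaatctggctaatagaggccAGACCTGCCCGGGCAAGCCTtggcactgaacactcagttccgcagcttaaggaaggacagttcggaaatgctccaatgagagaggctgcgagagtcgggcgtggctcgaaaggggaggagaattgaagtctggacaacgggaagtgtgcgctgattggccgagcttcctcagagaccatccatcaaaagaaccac
Gadd45a: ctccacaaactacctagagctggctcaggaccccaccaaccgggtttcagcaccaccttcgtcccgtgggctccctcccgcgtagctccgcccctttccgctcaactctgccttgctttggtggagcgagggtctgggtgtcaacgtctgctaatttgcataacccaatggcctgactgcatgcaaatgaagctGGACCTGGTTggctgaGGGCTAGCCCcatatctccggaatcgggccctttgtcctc
Sesn1: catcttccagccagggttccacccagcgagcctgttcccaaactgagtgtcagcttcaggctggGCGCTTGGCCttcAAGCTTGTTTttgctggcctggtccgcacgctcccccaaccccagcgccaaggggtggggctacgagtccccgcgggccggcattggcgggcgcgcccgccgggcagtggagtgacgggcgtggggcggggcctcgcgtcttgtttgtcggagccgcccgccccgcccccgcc

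In cells, Cdkn1a, Gadd45a and Sesn1 rose with YJ1206 and Ccng1 fell. Among the 10 members with an exact decamer in a window, all tested in cells, 6 were higher and 3 lower, and among the 14 tested members with windows and no decamer 7 were higher and 4 lower. Of all genes tested in cells, 37.8% were higher and 38.3% lower, not split by decamer, so nothing is read from these counts.

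In cells, YJ1206 moved the p53 genes in both directions. Fdxr, Cdkn1a, Eda2r, Gadd45a, Trp53inp1 and Sesn1 rose by 2.2- to 4.88-fold, and Rrm2b, Mdm4 and Ddb2 fell to between 0.269 and 0.449 of their DMSO level. Trp53 mRNA itself rose 1.66-fold, and Mdm2 did not pass the test. In edgeR's quasi-likelihood test with Benjamini-Hochberg adjustment, 25 of the 30 members tested had an adjusted p under 0.05 (83.3%), where 76.1% of all 11826 genes did. Of these, 15 were higher and 10 lower, where 37.8% of all genes were higher and 38.3% lower. At least 2-fold, 6 were higher and 3 lower, where 7.89% and 10.5% of all genes were. The 2 groups did not overlap for 24 of the 30 members, and for 77.5% of all genes. The share of members called was thus near that of all genes. The same shares of all genes stand beside the counts by role in cells given below, from which nothing is read about a role. Their median log2 fold change was 0.17 and that of all genes -0.02.

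**Figure D1:**
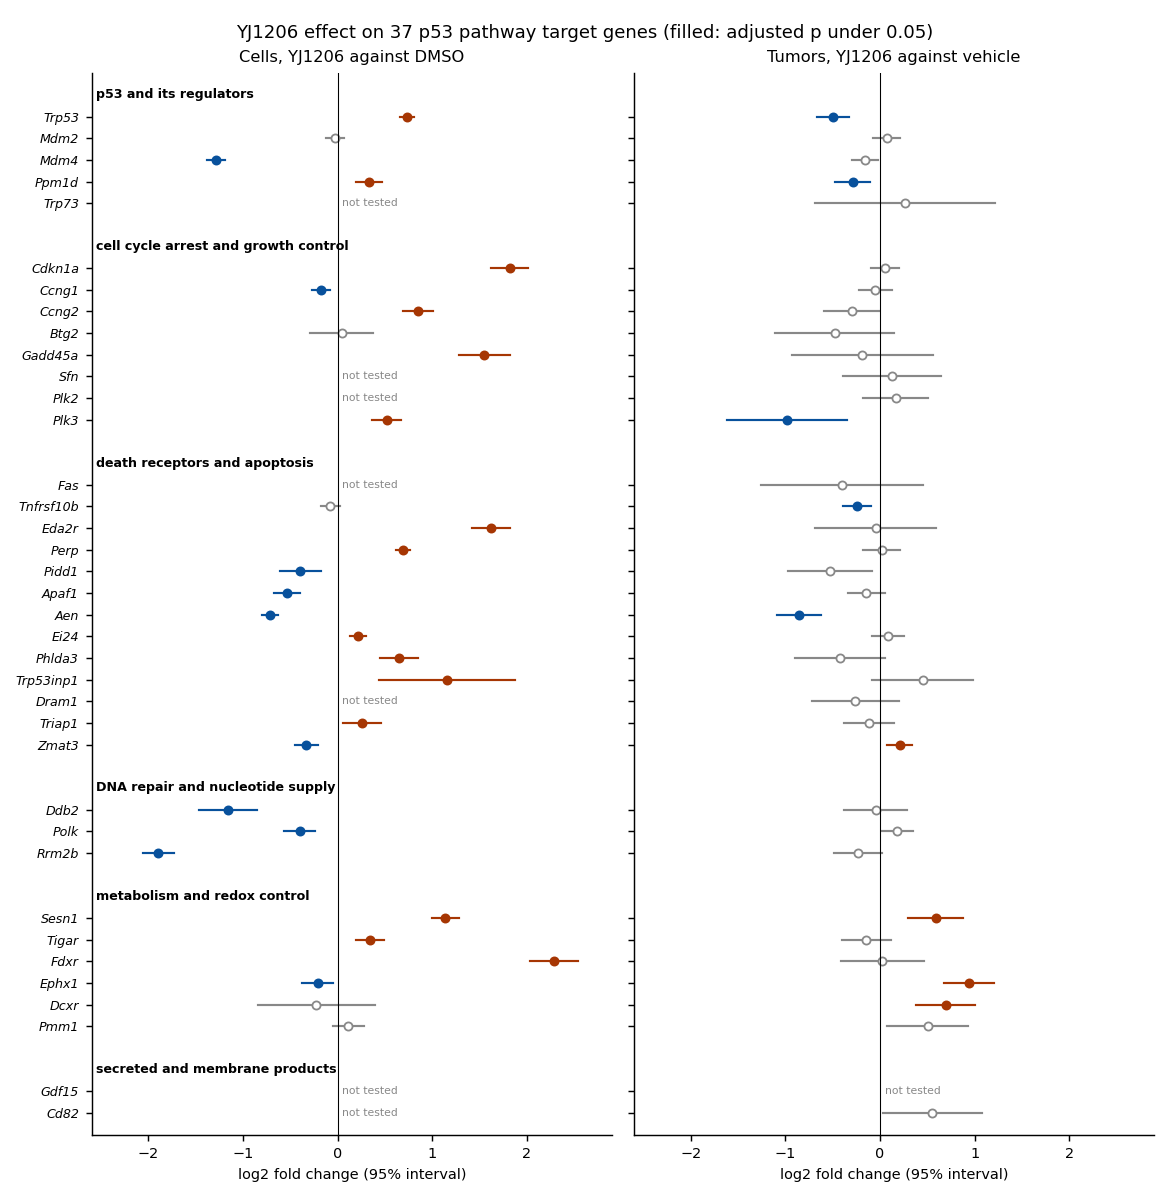
Log2 fold change with its 95% interval for each of the 37 members, by role, in cells (left, YJ1206 against DMSO, n = 3 and 3) and tumors (right, YJ1206 against vehicle, n = 3 and 3). Filled points passed an adjusted p of 0.05, red higher and blue lower: 15 higher and 10 lower in cells, 4 higher and 5 lower in tumors.

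Among p53 and its regulators, Trp53 stood at 125, 127 and 119 normalised CPM (estimated counts scaled to the TMM-adjusted library size) in the DMSO libraries and at 202, 206 and 211 in the YJ1206 libraries. The groups did not overlap (log2 fold change 0.73, SE 0.036, adjusted p = 2.53e-16). Mdm4 stood at 92.6, 90.9 and 92.6 CPM in DMSO and at 38.0, 39.0 and 36.3 CPM after YJ1206. All treated libraries of Mdm4 were below every DMSO library, and it fell by 1.28 on the log2 scale (SE 0.048, adjusted p = 4.73e-19). Ppm1d, the phosphatase that dephosphorylates p53 and its upstream kinases, read 40.7, 37.5 and 36.1 CPM in DMSO against 42.0, 51.3 and 50.9 CPM, a small rise of 0.33 on the log2 scale (SE 0.068, adjusted p = 8.53e-05) in which the lowest treated library lay close to the highest DMSO library. Mdm2 read 74.5, 72.3 and 70.2 CPM in DMSO and 70.1, 75.0 and 68.0 CPM after YJ1206, and the groups overlapped. Its log2 fold change was -0.03 with a 95% interval of -0.12 to 0.07 (adjusted p = 0.627). Trp73, the p53 relative, had at most 1 count in any cell library and was not tested.

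Of the 8 members for cell cycle arrest and growth control, 6 were tested, 4 rose and 1 fell. Cdkn1a encodes p21, the inhibitor of cyclin-dependent kinases through which p53 halts the cell cycle. It read 7.23, 7.89 and 7.50 CPM in DMSO and 27.5, 24.7 and 27.5 CPM after YJ1206, with no overlap and a 3.53-fold rise (log2 fold change 1.82, SE 0.093, adjusted p = 6.01e-16). Gadd45a, a growth arrest and DNA damage gene, read 5.23, 7.95 and 5.64 CPM in DMSO and 17.4, 16.6 and 21.1 CPM after treatment. Every treated library was above every DMSO library for Gadd45a (log2 fold change 1.55, SE 0.13, adjusted p = 2.31e-11). GENCODE places 19.1% of the exonic bases of Gadd45a under a transcript of the opposite strand, and the strand setting of the counting is not given in the sources used here. Ccng2, an atypical cyclin, rose by 0.85 on the log2 scale (adjusted p = 1.72e-10). Plk3, a stress-responsive polo-like kinase, read 19.1, 20.0 and 19.5 CPM in DMSO and 29.2, 25.9 and 28.8 CPM after YJ1206 (log2 fold change 0.52, SE 0.075, adjusted p = 6.39e-07), again with no overlap. Ccng1, the other cyclin of the pair and a long-known p53 target, fell by 0.18 (SE 0.044, adjusted p = 0.000759). Btg2, an antiproliferative gene, had a log2 fold change of 0.04 with a 95% interval of -0.29 to 0.37 (adjusted p = 0.823). Plk2 had 0 counts in all 6 cell libraries, which allows up to 0.151 to 0.23 normalised CPM in a library by the limit of 3 counts, and Sfn had 4 to 13 counts. These limits cover counting error only.

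**Figure D2:**
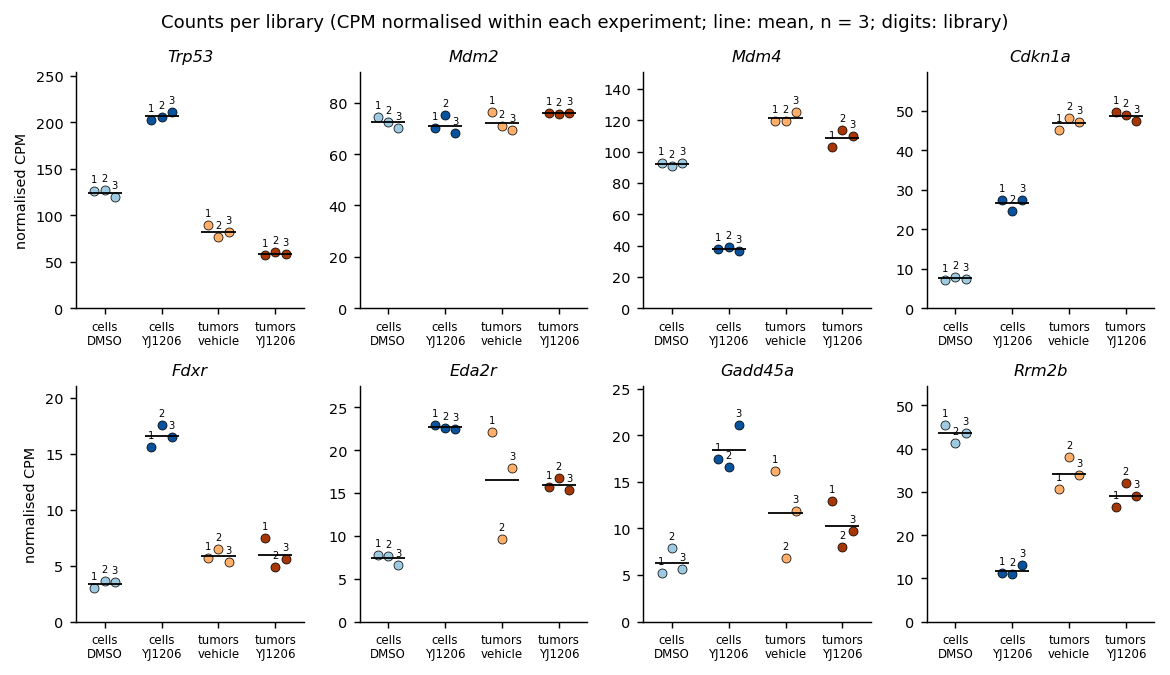
Normalised CPM of 8 members in each of the 12 libraries, with the group mean as a line (n = 3 per group); CPM was scaled within each experiment and each panel starts at 0. Cdkn1a, Fdxr, Eda2r and Gadd45a were higher and Mdm4 and Rrm2b lower in all YJ1206-treated cell libraries, and in tumors only Trp53 of these 8 passed the test.

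Of the 13 death receptors and apoptosis genes, 11 were tested in cells, 6 rose and 4 fell. Eda2r, a receptor of the TNF receptor family, read 7.79, 7.69 and 6.64 CPM in DMSO and 22.9, 22.6 and 22.5 CPM after YJ1206, a 3.08-fold rise with no overlap (log2 fold change 1.62, SE 0.097, adjusted p = 1.80e-14). Trp53inp1, a p53-induced nuclear protein that acts in autophagy and cell death, was rare, at 0.615, 0.619 and 0.856 CPM in DMSO and 1.93, 1.28 and 1.46 CPM after treatment. The groups did not overlap, but the rise rested on 12 to 27 counts per library (log2 fold change 1.16, SE 0.35, adjusted p = 0.00422). Perp, a desmosomal membrane protein, rose by 0.69 and Phlda3, which restrains AKT at the membrane, by 0.65, with adjusted p of 4.604e-16 and 1.40e-06. Triap1 and Ei24 rose by 0.26 and 0.22, with adjusted p of 0.0174 and 3.46e-05.

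In the same group, Aen, a nuclear exonuclease, fell by 0.72 (SE 0.042, adjusted p = 1.09e-14), Apaf1, the scaffold of the apoptosome, by 0.54 (adjusted p = 4.55e-08) and Pidd1, the scaffold of the PIDDosome, by 0.39 (adjusted p = 0.00158). Zmat3, an RNA-binding zinc finger protein, read 57.6, 54.3 and 62.5 CPM in DMSO and 46.7, 48.0 and 44.1 CPM after YJ1206. The groups did not overlap (log2 fold change -0.33, SE 0.057, adjusted p = 9.42e-06). Tnfrsf10b, the only TRAIL death receptor of the mouse, had a log2 fold change of -0.08 with a 95% interval of -0.18 to 0.02 (adjusted p = 0.14). Fas and Dram1 had at most 2 and 10 counts in a cell library and were not tested.

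All 3 DNA repair and nucleotide supply genes fell in cells, where 38.3% of all genes tested were lower. A list of 3 genes is too short to describe the role. Rrm2b encodes the p53-inducible subunit of ribonucleotide reductase, which supplies deoxynucleotides for repair. It read 45.5, 41.4 and 43.7 CPM in DMSO and 11.2, 11 and 13.0 CPM after YJ1206, so that each treated library held less than any DMSO library by a wide margin (log2 fold change -1.90, SE 0.079, adjusted p = 5.67e-18). Ddb2, which recognises ultraviolet damage, read 8.97, 8.51 and 8.46 CPM in DMSO and 3.15, 4.37 and 4.15 CPM after treatment. It fell by 1.16 (SE 0.15, adjusted p = 7.79e-08) with no overlap. GENCODE places 23.8% of the exonic bases of Ddb2 under Acp2 on the opposite strand, so reads there cannot be assigned with certainty. Polk, a translesion polymerase, fell by 0.40 (SE 0.081, adjusted p = 7.23e-05).

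Of the 6 metabolism and redox genes, 3 rose and 1 fell in cells. Fdxr, the mitochondrial ferredoxin reductase, showed the largest change of any member, from 2.97, 3.66 and 3.52 CPM in DMSO to 15.6, 17.6 and 16.5 CPM. The groups were far apart, at 4.88-fold (log2 fold change 2.29, SE 0.13, adjusted p = 2.42e-15). Sesn1, a sestrin that restrains mTORC1, read 20.3, 18.4 and 19.5 CPM in DMSO and 45.2, 39.7 and 43.3 CPM after YJ1206 with no overlap (log2 fold change 1.14, SE 0.07, adjusted p = 3.08e-14). Tigar, a phosphatase that slows glycolysis, rose by 0.34 (adjusted p = 0.000125). Ephx1, an epoxide hydrolase, read 26.0, 26.8 and 28.2 CPM in DMSO and 26.2, 22.6 and 21.0 CPM after treatment. Its groups overlapped, and the fall of 0.21 (SE 0.079, adjusted p = 0.0183) lost its call in DESeq2 and without DMSO library 3, YJ1206 library 2 or YJ1206 library 3. Pmm1 and Dcxr had log2 fold changes of 0.11 and -0.22 (adjusted p = 0.202 and 0.505). The secreted and membrane products Gdf15, a stress cytokine, and Cd82, a tetraspanin, had at most 4 and 1 counts in a cell library.

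The smaller changes in cells depended on the scaling. TMM factors set the median of all genes near 0, while total counts alone placed it at -0.20 and log2(TPM + 1) at -0.25. All members moved down under total counts, and most did under log2(TPM + 1). The split of called members was 15 higher and 10 lower with TMM, 11 and 12 with total counts, and 10 and 14 with log2(TPM + 1), where the median of the members was 0.17, -0.02 and -0.14. The shares of all genes called under total counts and log2(TPM + 1) are not given here. The shift of the split is therefore not read as particular to the members. Mdm2, at -0.03 with TMM, was at -0.21 (adjusted p = 0.000191) with total counts and at -0.33 (adjusted p = 0.000782) in limma on log2(TPM + 1). Ppm1d, Tigar, Triap1 and Ei24 were no longer called under total counts, and the last pair changed sign under log2(TPM + 1). Trp53inp1 was not called on that scale either, at 0.20 with an adjusted p of 0.0709. Pmm1 and Btg2, not called with TMM, changed sign under both, and Pmm1 was called lower on log2(TPM + 1), at -0.21 with an adjusted p of 0.0205. Tnfrsf10b was called lower under both, at -0.27 and -0.37, and Dcxr on log2(TPM + 1), at -0.43. The 9 members that changed at least 2-fold kept their direction under all 3 scalings, as did Trp53, Perp, Phlda3, Plk3, Ccng2, Aen, Apaf1, Polk, Pidd1, Zmat3, Ccng1 and Ephx1. The summed TPM of 10 cell division markers was 2960 to 3020 in DMSO and 2295 to 2356 in YJ1206-treated cells, whereas with TMM 4 of the 10 were called higher, among them Aurka at 0.92, and 5 lower. Their part in these results was not tested.

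**Figure D3:**
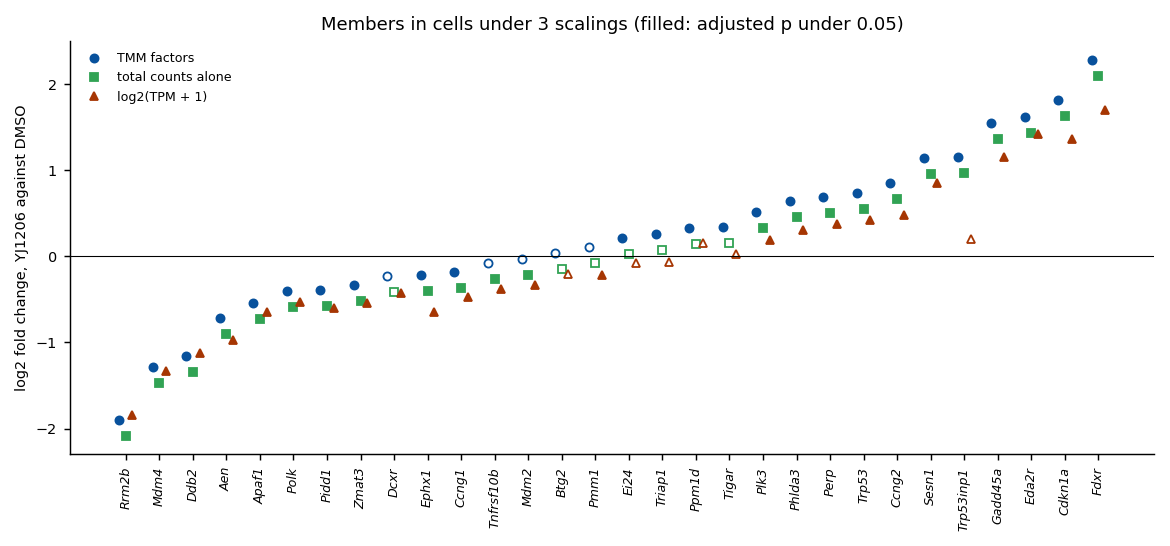
Log2 fold change of the 30 members tested in cells, YJ1206 against DMSO, under TMM factors, total counts alone and limma on log2(TPM + 1); filled symbols passed an adjusted p of 0.05. Total counts and log2(TPM + 1) lie below TMM for most members, and Trp53inp1, with 12 to 27 counts per library, moves most.

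In tumors, the share of members called was near that of all genes, and most members that rose in cells were not called. The biological coefficient of variation was 0.139 in tumors and 0.0322 in cells, so a gene not called in tumors is not shown to be unchanged. Cdkn1a, Fdxr, Gadd45a and Eda2r, up by 2.93- to 4.88-fold in cells, did not pass the test in tumors. Trp53 fell to 0.707 of its vehicle level, the opposite of its change in cells, and Aen and Plk3 fell to 0.553 and 0.507. Ephx1, Dcxr, Sesn1 and Zmat3 rose by 1.93-, 1.62-, 1.5- and 1.16-fold. Of 36 members tested 9 were called (25%), where 26.8% of all 15558 genes were. Of these, 4 were higher and 5 lower, where 11.9% of all genes were higher and 14.9% lower, and none changed 2-fold. The groups did not overlap for 14 members, 7 higher and 7 lower, and for 44.6% of all genes. The median log2 fold change was -0.05 over members and 0.01 over all genes. On log2(TPM + 1), limma called 3 members higher and 4 lower: Mdm4 gained a call and Ppm1d, Plk3 and Zmat3 lost theirs. The share of all genes called on that scale is not given here. From libraries 1 and 2 alone, edgeR called 0 members and 1 of 15684 genes, while 5 members and 3068 genes had an unadjusted p under 0.05. In these bulk tumors, fewer cells of a type and less RNA per cell cannot be told apart.

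Several cell type markers differed between the tumor groups or among vehicle libraries. The summed TPM of the 10 cell division markers was 1142 to 1225 in vehicle and 292 to 522 in YJ1206-treated tumors, all 10 detected. That of 8 skeletal muscle markers was 832, 39.1 and 514 in vehicle libraries 1, 2 and 3 and 17.0 to 18.8 after YJ1206. Fibroblast markers stood at 862, 369 and 663 in vehicle and 254 to 511 in treated tumors, leukocyte and macrophage markers at 334 to 525 and 373 to 480, endothelial markers at 66.7 to 70.8 and 77.1 to 82.2, T and NK cell markers at 10.2 to 13.3 and 11.3 to 12.9, and epithelial and prostate markers at 364 to 367 and 582 to 624. Of these markers only the epithelial Cldn7 had 0 counts throughout a tumor group. The sums do not show single markers. Among those of leukocytes, macrophages, T and NK cells, Cd8a (log2 fold change 0.74), Itgam (0.63), C1qa (0.62) and C1qb (0.63) were called higher in treated tumors. Lyz2, Cd14 and Cd3d had log2 fold changes below 0 and were not called. The part of all these markers in the member results was not tested.

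Among the regulators in tumors, Trp53 read 88.9, 76.4 and 81.9 CPM in vehicle and 56.8, 59.9 and 58.1 CPM after YJ1206. Every treated library was below every vehicle library (log2 fold change -0.50, SE 0.072, adjusted p = 0.00364), and the call held when any single library was left out. Libraries 1 and 2 alone gave -0.50 with an adjusted p of 0.146. Ppm1d, which rose in cells, read 29.0, 26.3 and 28.1 CPM in vehicle and 23.0, 22.1 and 23.2 CPM in treated tumors without overlap (log2 fold change -0.29, SE 0.079, adjusted p = 0.0337), a call lost without any library other than vehicle library 2. Mdm2 read 76.5, 70.8 and 69.2 CPM in vehicle and 75.9, 75.6 and 75.8 CPM after treatment, and the groups overlapped (log2 fold change 0.07, 95% interval -0.07 to 0.21, adjusted p = 0.438). Mdm4 read 119, 120 and 126 CPM in vehicle and 103, 113 and 110 CPM in treated tumors. Its groups did not overlap, but the test did not call it (log2 fold change -0.16, SE 0.058, adjusted p = 0.0821). Trp73 had a log2 fold change of 0.26 with a 95% interval of -0.69 to 1.21.

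Of the 8 arrest genes in tumors, Plk3 alone was called. It read 54.1, 24.1 and 41.3 CPM in vehicle and 21.9, 17.5 and 21.2 CPM after YJ1206, so vehicle library 2 lay just above the treated libraries (log2 fold change -0.98, SE 0.27, adjusted p = 0.0345). The call was lost without any library but vehicle library 2, and on log2(TPM + 1). Cdkn1a read 45.0, 48.3 and 47.1 CPM in vehicle and 49.8, 48.8 and 47.4 CPM in treated tumors, overlapping groups with a log2 fold change of 0.06 and a 95% interval of -0.09 to 0.20. Gadd45a read 16.2, 6.86 and 11.9 CPM in vehicle and 13.0, 8.0 and 9.68 CPM after treatment, so that the vehicle libraries alone spanned the treated ones (log2 fold change -0.18, 95% interval -0.93 to 0.56). Btg2 was also spread widely in vehicle tumors, at 112, 252 and 164 CPM, against 108, 141 and 130 CPM (adjusted p = 0.23). Ccng2, Ccng1, Sfn and Plk2 had log2 fold changes from -0.30 to 0.17 and were not called.

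Among the 13 death receptors and apoptosis genes in tumors, Aen and Tnfrsf10b fell and Zmat3 rose. Aen read 98.2, 77.7 and 88.7 CPM in vehicle and 46.9, 52.5 and 46.8 CPM after YJ1206, with no overlap and the same direction as in cells (log2 fold change -0.85, SE 0.099, adjusted p = 0.00193). Tnfrsf10b read 50.7, 51.0 and 51.7 CPM in vehicle and 42.0, 42.3 and 45.1 CPM in treated tumors, again without overlap (log2 fold change -0.25, SE 0.063, adjusted p = 0.0263). Zmat3 read 101, 92.5 and 98.2 CPM in vehicle and 108, 114 and 114 CPM after treatment. Each treated library was above each vehicle library, by 0.21 on the log2 scale (SE 0.058, adjusted p = 0.0353). The calls of Tnfrsf10b and Zmat3 were lost without vehicle library 3 or any one treated library. Eda2r read 22.1, 9.59 and 17.9 CPM in vehicle and 15.7, 16.8 and 15.3 CPM in treated tumors, with the treated libraries inside the vehicle range (log2 fold change -0.05, 95% interval -0.68 to 0.59). Trp53inp1 read 37.3, 18.4 and 30.6 CPM in vehicle and 41.1, 37.9 and 38.5 CPM after treatment, which did not overlap but was not called (log2 fold change 0.45, SE 0.23, adjusted p = 0.188). Pidd1, lower in cells, was also lower without overlap in treated tumors but not called (log2 fold change -0.53, SE 0.19, adjusted p = 0.0812). Phlda3, Dram1, Apaf1, Triap1, Perp and Ei24 had log2 fold changes from -0.42 to 0.08 and were not called. Fas, the classic death receptor, had a log2 fold change of -0.40 with a 95% interval of -1.25 to 0.46 at 10 to 24 counts per library.

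The DNA repair genes, all lower in cells, were not called in tumors: 0 of 3 by edgeR, DESeq2 or limma, with 1 of 3, Polk, at an unadjusted p under 0.05 in edgeR. Rrm2b read 30.8, 38.2 and 33.8 CPM in vehicle and 26.5, 32.0 and 28.9 CPM after YJ1206, overlapping groups (log2 fold change -0.23, 95% interval -0.49 to 0.02, adjusted p = 0.16). Ddb2 read 15.2, 11.4 and 13.6 CPM in vehicle and 11.4, 14.2 and 13.3 CPM after treatment, and the groups overlapped in full (log2 fold change -0.04, 95% interval -0.38 to 0.29). Polk had a log2 fold change of 0.18 (SE 0.069, adjusted p = 0.0871).

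Of the 6 metabolism and redox genes, 3 rose in tumors and none fell, where 11.9% of all genes tested were higher and 14.9% lower. Ephx1, slightly lower in cells, read 26.9, 27 and 27.6 CPM in vehicle and 60.2, 44.4 and 52.3 CPM after YJ1206 with no overlap (log2 fold change 0.94, SE 0.11, adjusted p = 0.00213). Dcxr, a reductase of dicarbonyls and sugars, read 5.85, 7.65 and 7.10 CPM in vehicle and 10.6, 11.8 and 11 CPM in treated tumors, also without overlap (log2 fold change 0.70, SE 0.13, adjusted p = 0.00947). Sesn1 read 47.7, 64.2 and 54.0 CPM in vehicle and 93.2, 75.3 and 81.1 CPM after treatment. It was the one member that rose in both experiments (log2 fold change 0.59, SE 0.13, adjusted p = 0.0140), although its tumor call was lost without library 3 of either group. Pmm1 read 11.2, 19.0 and 13.8 CPM in vehicle and 19.9, 21.6 and 21.0 CPM, without overlap and with an adjusted p of 0.0833 in edgeR; DESeq2 called it. Fdxr read 5.67, 6.48 and 5.36 CPM in vehicle and 7.48, 4.87 and 5.56 CPM in treated tumors, a log2 fold change of 0.02 with a 95% interval of -0.41 to 0.46. Cd82 had a log2 fold change of 0.55 (adjusted p = 0.111), and Gdf15, at 4 to 23 counts per tumor library, was not tested.

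**Figure D4:**
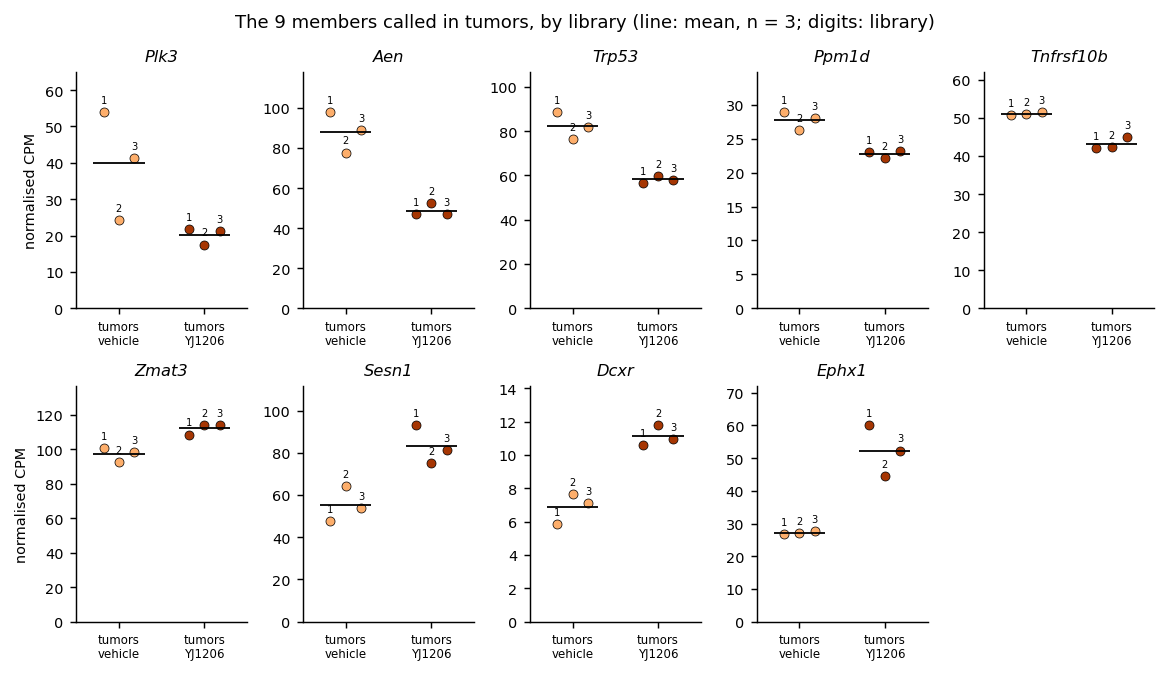
Normalised CPM of the 9 members called in tumors, in the 3 vehicle and 3 YJ1206-treated tumor libraries, with the group mean as a line and library numbers beside the points. Each panel starts at 0, and the labels do not say whether the libraries are separate animals. The groups do not overlap in any panel, and vehicle library 2 of Plk3 lies close to the treated libraries.

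In both experiments 7 members passed the test. Of these, 5 went opposite ways: Trp53, Ppm1d and Plk3 were higher in cells and lower in tumors, and Zmat3 and Ephx1 were lower in cells and higher in tumors. Sesn1 was higher and Aen lower in both. Over all genes called in both, 1229 of 2985 (41.2%) had opposite signs. Of these 7 members, Trp53 and Aen kept both calls when any single library was left out. In tumors, Ppm1d and Plk3 each lost the call in 5 of the 6 leave-outs, Zmat3 in 4 and Sesn1 in 2. In cells, Ephx1 lost its call without any of 3 libraries and Ppm1d with total counts or TPM. From tumor libraries 1 and 2 alone all 7 were below the threshold in tumors, with the same signs.

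The difference between the 2 experiments was tested as an interaction over all 12 libraries. The effect of YJ1206 on Cdkn1a, Gadd45a, Eda2r and Fdxr was smaller in tumors than in cells, and its effect on the 3 repair genes was more positive in tumors. Of 36 members in the fit, 30 of them testable in both experiments, 22 had an adjusted p under 0.05, where 46.8% of 15423 genes did. The effect was more positive in tumors for 8 and more negative for 14, where it was so for 20.8% and 26% of all genes. The effect in tumors minus that in cells was -2.30 for Fdxr (SE 0.23, adjusted p = 3.09e-06), -1.79 for Cdkn1a (SE 0.097, adjusted p = 1.92e-08), -1.77 for Gadd45a (SE 0.39, adjusted p = 0.00223) and -1.70 for Eda2r (SE 0.32, adjusted p = 0.000602). It was -1.27 for Trp53 (SE 0.083, adjusted p = 7.98e-08), -1.53 for Plk3 and -0.65 for Ppm1d. On the other side it was 1.63 for Rrm2b (SE 0.14, adjusted p = 9.24e-07), 1.13 for Ephx1, 1.09 for Mdm4 (SE 0.072, adjusted p = 8.20e-08), 1.08 for Ddb2 and 0.56 for Polk, so that all 3 repair genes differed in the same sense. For Mdm2 it was 0.06 with a 95% interval of -0.10 to 0.23. For Aen, which fell in both, it was -0.17 with an interval of -0.42 to 0.08, and its sign turned under total counts and log2(TPM + 1). Without library 3 of both tumor groups, an alternative chosen after the data were seen, 7 members were higher and 12 lower. Total counts alone, which placed the median of all genes at 0.20 instead of -0.01, gave 11 higher and 10 lower, and log2(TPM + 1), at 0.13, gave 12 and 10. No shares of all genes called are given here for these alternatives, so nothing particular to the members is read from the counts. Tnfrsf10b, at -0.20 (adjusted p = 0.0472), was the one called member whose sign turned under both. The experiments also differed in dose, duration and host, and the labels call the RNA polyA in cells and total in tumors, so these cannot be told apart as sources of the difference.

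Levels across the 4 groups are given in TPM, which accounts for transcript length, and as a description. Cells and tumors were listed separately, with 40077 and 34508 genes, and the labels call the RNA polyA in cells and total in tumors. Levels in cells and tumors are therefore not like for like. Perp and Trp53 were the most abundant members in cells, at 140 ± 3.35 and 133 ± 3.91 TPM in DMSO (SD, n = 3), followed by Aen at 94.7 ± 1.92 and Ei24 at 75.0 ± 4.6. In vehicle tumors Perp led at 143 ± 12.9, and Btg2 (108 ± 41.4) and Trp53 (82.6 ± 7.92) followed with spreads that meet. Trp53 was higher in both cell groups than in both tumor groups, at 179 ± 2.60 TPM in YJ1206-treated cells and 55.4 ± 0.813 in YJ1206-treated tumors. Mdm2 stood at 41.3 ± 1.13, 32.7 ± 1.81, 38.9 ± 2.62 and 38.8 ± 0.548 TPM in DMSO cells, YJ1206-treated cells, vehicle tumors and YJ1206-treated tumors. On this scale the cell groups of Mdm2 lay apart and the 2 tumor groups did not differ beyond their spread.

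For 21 of the 37 members the highest of the 4 group means was that of a tumor group. Cdkn1a was at 7.57 ± 0.287 TPM in DMSO cells, 21.1 ± 1.24 in YJ1206-treated cells, 45.9 ± 0.453 in vehicle tumors and 46.1 ± 1.35 in YJ1206-treated tumors, so the treated cells remained below both tumor groups. Btg2 was at 3.37 ± 0.375 and 2.81 ± 0.291 TPM in the cell groups and 108 ± 41.4 and 74.4 ± 9.02 in the tumor groups. Plk2, Trp53inp1, Cd82, Dram1, Sfn, Fas, Trp73 and Gdf15 each had a mean under 1 TPM in both cell groups and a higher mean in both tumor groups, with Trp53inp1 at 8.73 ± 3.04 and 11.3 ± 0.634 and Plk2 at 8.26 ± 1.25 and 8.84 ± 0.679. Summed markers of host cells were lower in the cells than in the tumors, but not all were absent from the cells. In all DMSO libraries 5 of 10 fibroblast, 5 of 10 leukocyte and 5 of 8 endothelial markers had 0 counts. The sums of these 3 lists in DMSO were 3.72 to 5.68, 11.7 to 13.8 and 0.0842 to 0.773 TPM. Skeletal muscle markers summed to 7.98 to 12.3 TPM there, and T and NK cell markers to 3.93 to 6.29 TPM. The part of host cells in the tumor levels was not tested. Fdxr showed another order, highest in YJ1206-treated cells at 12.9 ± 0.763 TPM and at 3.27 ± 0.355, 5.27 ± 0.419 and 5.14 ± 1.23 in DMSO cells, vehicle tumors and YJ1206-treated tumors.

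**Figure D5:**
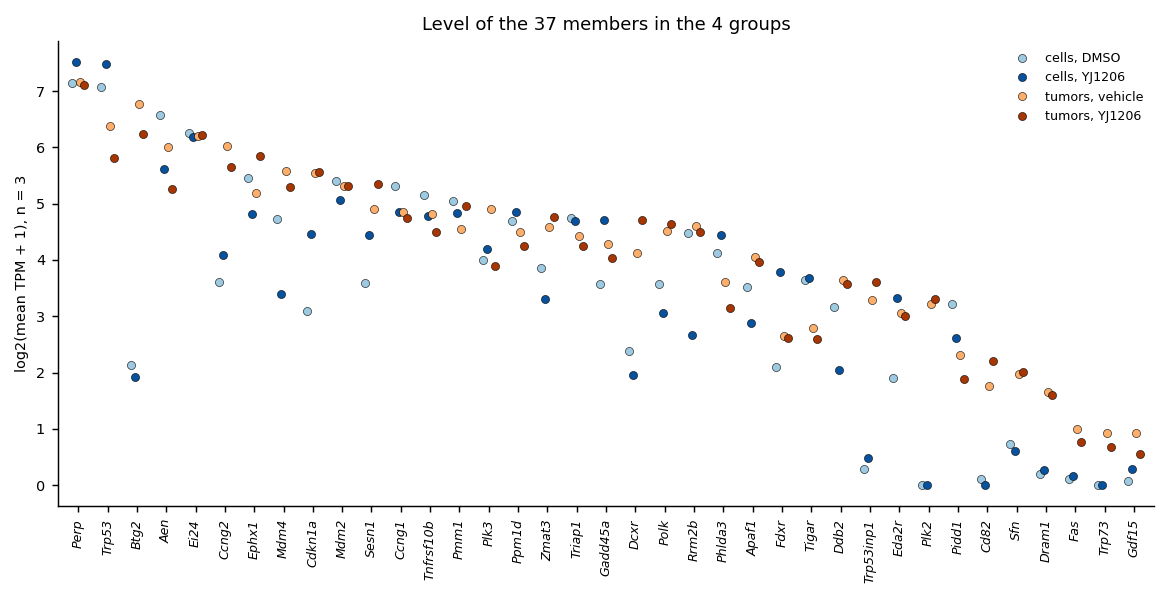
Mean TPM of each member in the 4 groups on a log2(TPM + 1) axis (n = 3 per point), ordered by the highest group mean. Perp and Trp53 stand at the left, and Plk2, Cd82, Sfn, Dram1, Fas, Trp73 and Gdf15, low or at 0 in both cell groups, at the right.

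The members were also set against the length of their genes in GENCODE vM21 (GRCm38). Mdm4 spans 71.1 kb (chr1:132959484-133030561), Rrm2b 37.4 kb (chr15:37923952-37961318) and Ddb2 25.4 kb (chr2:91211572-91236982), whereas Cdkn1a spans 9.8 kb (chr17:29090976-29100727), Fdxr 9.0 kb (chr11:115268024-115277050) and Gadd45a 2.4 kb (chr6:67035096-67037457). In cells, the 12 tested members under 10 kb had a median log2 fold change of 0.39, with 7 higher and 2 lower, and the 9 members of 30 to 100 kb one of -0.33, with 3 higher and 6 lower. Those of 10 to 30 kb lay between, at 0.22. Of all genes tested in cells, 37.8% were higher and 38.3% lower, not split by span, so nothing is read from the counts by span. Over all genes tested the medians were 0.02 under 10 kb, -0.0003 at 10 to 30 kb, -0.03 at 30 to 100 kb and -0.10 over 100 kb. Spearman's rho between span and log2 fold change was -0.31 across the 30 members and -0.05 across 11822 genes. Sesn1, at 98.5 kb the longest member tested in cells, and Eda2r, at 43.4 kb, rose. In tumors rho was 0.24 across 36 members and -0.04 across 15543 genes. These are correlations across genes of the same libraries, which are not independent replicates.

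Beside the members, 56 other genes of the pathway were read. In cells 27 of the 49 tested were higher and 14 lower, where 37.8% of all genes were higher and 38.3% lower. Total counts gave 25 and 19, for which no share of all genes is given here. The largest rises were in Ddit4, which like Sesn1 restrains mTORC1, at 16.0-fold (log2 fold change 4.0, SE 0.078), the antiproliferative Tob1, a relative of Btg2, at 5.18-fold, and Trp53bp2, whose product ASPP2 steers p53 to death genes, at 3.39-fold. The largest falls were in Atr, the kinase that signals replication stress to p53 (log2 fold change -1.38, SE 0.062), Cpt1c (-1.10) and Steap3 (-1.05). Adjusted p ranged from 3.79e-25 for Ddit4 to 7.81e-06 for Steap3. In tumors 10 of 55 were higher and 12 lower, where 11.9% of all genes were higher and 14.9% lower. The list was led by Trp53i11 (0.72), Ptp4a3 (0.57) and Tob1 (0.56) on one side and by Gtse1 (-1.63), Psrc1 (-1.54) and Ckap2 (-1.5), genes of the mitotic spindle, on the other, with adjusted p from 0.00316 to 0.0232. The cell division markers given above were lower in the same tumors. From libraries 1 and 2 alone 0 of these 55 were called by edgeR, with 15 at an unadjusted p under 0.05. Gtse1, like Trp53 and Plk3, was higher in cells (1.07) and lower in tumors.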

How the data were processed

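Gene tables of 6 Myc-CaP cell libraries and 6 Myc-CaP tumor libraries were used. Per the labels, libraries were depleted of ribosomal RNA, while the molecule is called polyA RNA in cells and total RNA in tumors. The submitters' processing notes name kallisto and GRCm38, and the annotation release and strand setting are not given in the sources used here. The authors deposited estimated counts and TPM per gene, without pooling. Groups came from the treatment labels, which for the tumors stand under a tag named batch. The p53 members, the other gene lists and the rule for named genes were chosen with earlier results of these data known.

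Estimated counts were rounded to whole numbers. In each experiment, edgeR 4.0.16 in R 4.3.3 was run with filterByExpr, TMM factors, glmQLFit and glmQLFTest over all genes, on its 6 libraries, and a Benjamini-Hochberg adjusted p under 0.05 was called. The interaction was fitted on the 12 libraries, over the 15423 genes kept of 34507 listed in both tables, joined by gene ID. CPM are normalised by TMM within an experiment, and intervals are 95%. Total estimated counts per library ranged from 13936902 to 26928365, and the biological coefficient of variation was 0.0322 in cells and 0.139 in tumors. Fully valued were Trp53, Cdkn1a, Mdm2, Mdm4, Gadd45a, Eda2r and the members that changed at least 2-fold in cells or passed the test with opposite signs; the other members are given by role, and of the other pathway genes the 3 largest called changes each way. With too few counts, 7 members were not tested in cells and 1 not in tumors.

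Alternatives were DESeq2 size factors, total counts alone, no filter, DESeq2 1.42.0, limma 3.58.1 on log2(TPM + 1) and log2(TPM + 0.1), a replicate block, each library left out, and tumor libraries 1 and 2 alone. Whether libraries of the same number pair was checked by the correlation of their deviations from group means. The tests were tried on simulated data. Spans and overlaps came from GENCODE vM21 and promoter windows from RefSeq (GRCm38.p6). Counting limits of 3 counts cover counting error only. Protein sequences were not used here.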

Additional observations from a re-analysis of the deposited data

Results flagged for a closer look

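For 22 of 36 members the effect of YJ1206 in tumors differed from that in cells by the interaction term (edgeR's quasi-likelihood test, adjusted p from 1.92e-08 to 0.0472). Of all 15423 genes in the fit, 46.8% passed the same test, 20.8% higher and 26% lower. A difference between the experiments is therefore not read as particular to the members. Among the regulators, the effect in tumors minus that in cells was -1.27 for Trp53, -0.65 for Ppm1d and 1.09 for Mdm4 on the log2 scale. Among the arrest genes it was -1.79 for Cdkn1a, -1.77 for Gadd45a, -1.53 for Plk3 and -1.18 for Ccng2. Among the death receptors and apoptosis genes it was -1.70 for Eda2r, -1.10 for Phlda3, -0.70 for Perp, -0.41 for Triap1 and -0.20 for Tnfrsf10b, against 0.51 for Zmat3 and 0.36 for Apaf1. Among the repair and nucleotide supply genes it was 1.63 for Rrm2b, 1.08 for Ddb2 and 0.56 for Polk. Among the metabolism and redox genes it was -2.30 for Fdxr, -0.58 for Sesn1 and -0.52 for Tigar, against 1.13 for Ephx1 and 0.89 for Dcxr. When single libraries were left out, the difference fell below the threshold in 9 of 12 cases for Tnfrsf10b, 8 for Triap1 and 4 for Apaf1. With total counts or log2(TPM + 1), Triap1, Tigar and Sesn1 also lost it, and the sign of Tnfrsf10b turned. What sets the experiments apart in these genes was not tested.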

How the results depend on the processing

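The replicate numbers did not pair the libraries, with correlations of deviations from -0.0303 to 0.00316. With a replicate block, 15 members were higher and 10 lower in cells, 3 and 4 in tumors, and 7 and 12 by the interaction. In cells all 25 calls held under DESeq2 size factors and without a filter. Leaving out each library gave 14 to 15 higher and 9 to 10 lower members in cells, 2 to 5 higher and 2 to 7 lower in tumors, and 7 to 9 and 12 to 17 by the interaction. In tumors, libraries 1 and 2 alone gave 0 higher and 0 lower members and 0 and 0 of the other pathway genes in edgeR, from fewer libraries, and log2(TPM + 1) gave 5 higher of those. The interaction of libraries 1 and 2 called 7 members higher and 12 lower. Shares of all genes called under these settings are not given in this section, so nothing particular to the members is read from the counts.

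Signs turned in genes that were mostly not called. In cells, Btg2 was at -0.14 with total counts, -0.20 with log2(TPM + 1) and -0.26 with log2(TPM + 0.1), and Pmm1 at -0.07, -0.21 and -0.22. On the last 2 scales Ei24 was at -0.074 and -0.075 and Triap1 at -0.064 and -0.066. In tumors, those scales gave -0.0013 and -0.0013 for Mdm2, -0.16 and -0.22 for Trp73, 0.0091 and 0.024 for Eda2r, -0.048 and -0.048 for Perp, and -0.047 and -0.058 for Fdxr. Eda2r was also at 0.024 with the replicate block and at 0.039 from libraries 1 and 2. Interaction terms with total counts and log2(TPM + 1) were 0.024 and 0.066 for Tnfrsf10b, 0.057 and 0.16 for Pidd1, 0.053 and 0.24 for Aen, and 0.056 and 0.084 for Ei24, and Trp53inp1 was at 0.19 on the second.

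Over single libraries left out, the log2 fold change ran from -0.060 to 0.0089 for Mdm2 and from -0.047 to 0.12 for Btg2 in cells. In tumors it ran from -0.078 to 0.63 for Trp73, -0.096 to 0.0036 for Ccng1, -0.47 to 0.14 for Gadd45a, -0.047 to 0.32 for Sfn, -0.33 to 0.23 for Eda2r, -0.062 to 0.10 for Perp, -0.15 to 0.063 for Ddb2 and -0.17 to 0.15 for Fdxr. The interaction of Pidd1 ran from -0.29 to 0.0031. Apart from the libraries and scales named, the cause was not tested.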
